A study of Homo sapiens with 36 samples.

Results

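The RAB GTPases are the largest branch of the RAS superfamily of small GTPases, and each marks and directs a particular step of membrane traffic. A RAB is switched on by a guanine nucleotide exchange factor (GEF) and off by a GTPase-activating protein (GAP), binds effectors such as motors and tethers in its GTP form, and is carried through the cytosol by a GDP dissociation inhibitor (GDI). Most RABs need geranylgeranyl groups, made from mevalonate, to sit on membranes, and statins block the enzyme that makes mevalonate. In neutrophils RAB27A serves the release of granules, while RAB5A and RAB7A act in early and late steps of the phagosome.

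The RAB genes were taken as every annotated symbol made of RAB, digits and at most 1 letter, whatever their values. 60 genes of the array met this rule, out of 16225 genes with a single symbol, and 57 of them were tested among 15308 genes. RAB34, RAB39A and RAB39B fell under the filter on dim probes. The mean log2 signal of their probes over the 36 arrays ran from 6.15 (RAB30) to 11.12 (RAB1A), a range of probes that does not rank the genes. The median of all probes was 6.34 and the 90th percentile 8.59. A mean under 7, close to that median, was found for 20 of the 57 genes, where low expression and no expression look alike.

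NB4 cells are an established line from a human acute promyelocytic leukaemia. They express PML-RARA and mature along the granulocyte path when given all-trans retinoic acid (ATRA). The groups were cells with neither agent (control), with ATRA, with atorvastatin, and with both agents (combination), at 8, 24 and 48 h, and ATRA was given 1 h ahead of atorvastatin. The control and every treated group are of the same line, in the same medium, and no primary cells were measured. Every group was hybridised on 3 arrays, which makes 36 arrays in 12 groups, and that number limits the precision of every value. The series text states 3 independent experiments, and which array belongs to which was inferred from the numbers in the sample titles. The question was how a statin bears on the response of leukaemic cells to ATRA. Changes are log2 differences of normalised signal ± SE from limma (n = 3 arrays per group), with p-values adjusted over the 15308 genes of a comparison and a threshold of 0.05. In RNA from whole cultures, a change in the share of cells of a kind and a change in RNA per cell cannot be told apart.

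Raw median signals ran from 78.5 to 185.4 across the arrays. In experiment 1 the 6 arrays labelled with ATRA had medians of 101.8 to 118.2, below the 152.2 to 185.4 of the 6 labelled without it. The part of that difference in the results was not tested. At 24 h the medians of experiment 1 followed the labels, with 118.2 in the array labelled ATRA and 178.9 in the one labelled atorvastatin. Both of these arrays are doubted below. Of the promyelocyte and myeloid markers 7 of 8 were measured, and all but ELANE (6.38 to 6.80) were well above the median probe, up to 15.01 for MPO. The erythroid markers were dim (6.01 to 6.75, 3 of 4 measured), as were MS4A1 and LCK of the lymphoid list. CD3D, which marks T cells, read 9.30 to 10.39, and among the 5 epithelial and stromal genes measured EPCAM read 7.88 to 8.36 and KRT18 8.02 to 9.17, while KRT19, COL1A1 and COL1A2 were dim. Their part in the results was not tested.

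Of the libraries, 2 went against their labels. In experiment 1 at 24 h the library labelled ATRA read 7.88 for NCF1, an oxidase subunit that ATRA induces, against 13.81 and 13.95 in the other ATRA arrays. The library labelled atorvastatin read 13.66 against 7.49 and 7.37. KLF2, which statins induce, did the reverse, with 8.51 in the library labelled ATRA and 6.49 in the one labelled atorvastatin. RAB37 and RAB31 followed NCF1, as given with the 24 h values. Counts are therefore given with these 2 doubted libraries and, where it matters, without them. All groups share 1 estimate of each gene's spread, so these 2 libraries also enter the SEs at 8 and 48 h.

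After 48 h with both agents, RAB genes rose more often than they fell. Past the threshold were 20 of the 57 (35.1%), of which 18 were higher and 2 lower than in control, while 20.4% of all genes tested passed it, 9.67% higher and 10.7% lower. RAB31, RAB8B, RAB13, RAB37 and RAB29 rose by more than 1 log2 unit, and RAB6B and RAB15 fell. The median change of the 57 was 0.17, against -0.01 over all genes tested. Among the 37 RAB genes with a mean signal of at least 7, 48.6% rose and 5.41% fell, against 15.5% and 21.2% of all such genes. In 32 of the 57 the 3 combination arrays did not overlap the 3 control arrays, as they did not in 29.8% of all genes tested.

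The count depended on the arrays used. Without experiment 2 it was 9 of 57, without experiment 1 17 and without experiment 3 15. Those fits hold fewer arrays, and the share of all genes in them is not given. Whether RAB genes differed less from all genes in those fits is therefore not shown, here or in later comparisons. Without the 2 doubted libraries the count was 22, 19 of them higher, against 21.4% of all genes. Under median scaling of the arrays, which took the median change of all genes from -0.01 to 0.10, 26 RAB genes passed, 24 of them higher, and 87.8% of the calls over all genes were then higher, in place of 47.5%. Of the RAB genes tested 42.1% rose under that scaling, against 16.0% of all genes. The mean signal of the 57 genes lay between 8.11 and 8.18 in the combination arrays at 48 h and between 7.86 and 7.94 in the controls.

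**Figure D1:**
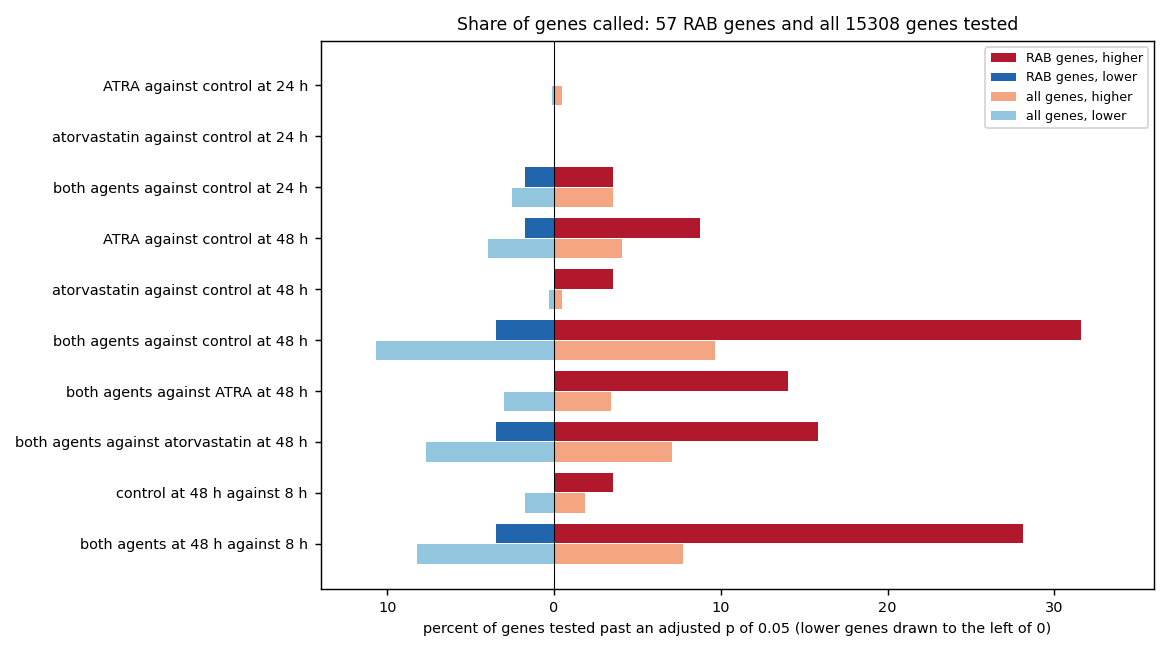
Percent of genes past an adjusted p of 0.05 in 10 comparisons, for the 57 RAB genes (dark bars) and all 15308 genes tested (light bars), with higher genes to the right of 0 and lower genes to the left. In both agents against control at 48 h, 31.6% of the RAB genes were higher against 9.67% of all genes, and 3.51% were lower against 10.7%.

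Each agent alone changed fewer RAB genes. ATRA at 48 h changed 6 of the 57, 5 higher and 1 lower, where 8.02% of all genes changed and 4.06% rose. Atorvastatin alone changed RAB31 and RAB13, both higher, where 0.771% of all genes changed and 0.496% rose. The ATRA count was 9 without the 2 doubted libraries (9.58% of all genes) and 2 without experiment 2. No RAB gene passed for atorvastatin when any 1 experiment was left out, or under median scaling.

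**Figure D2:**
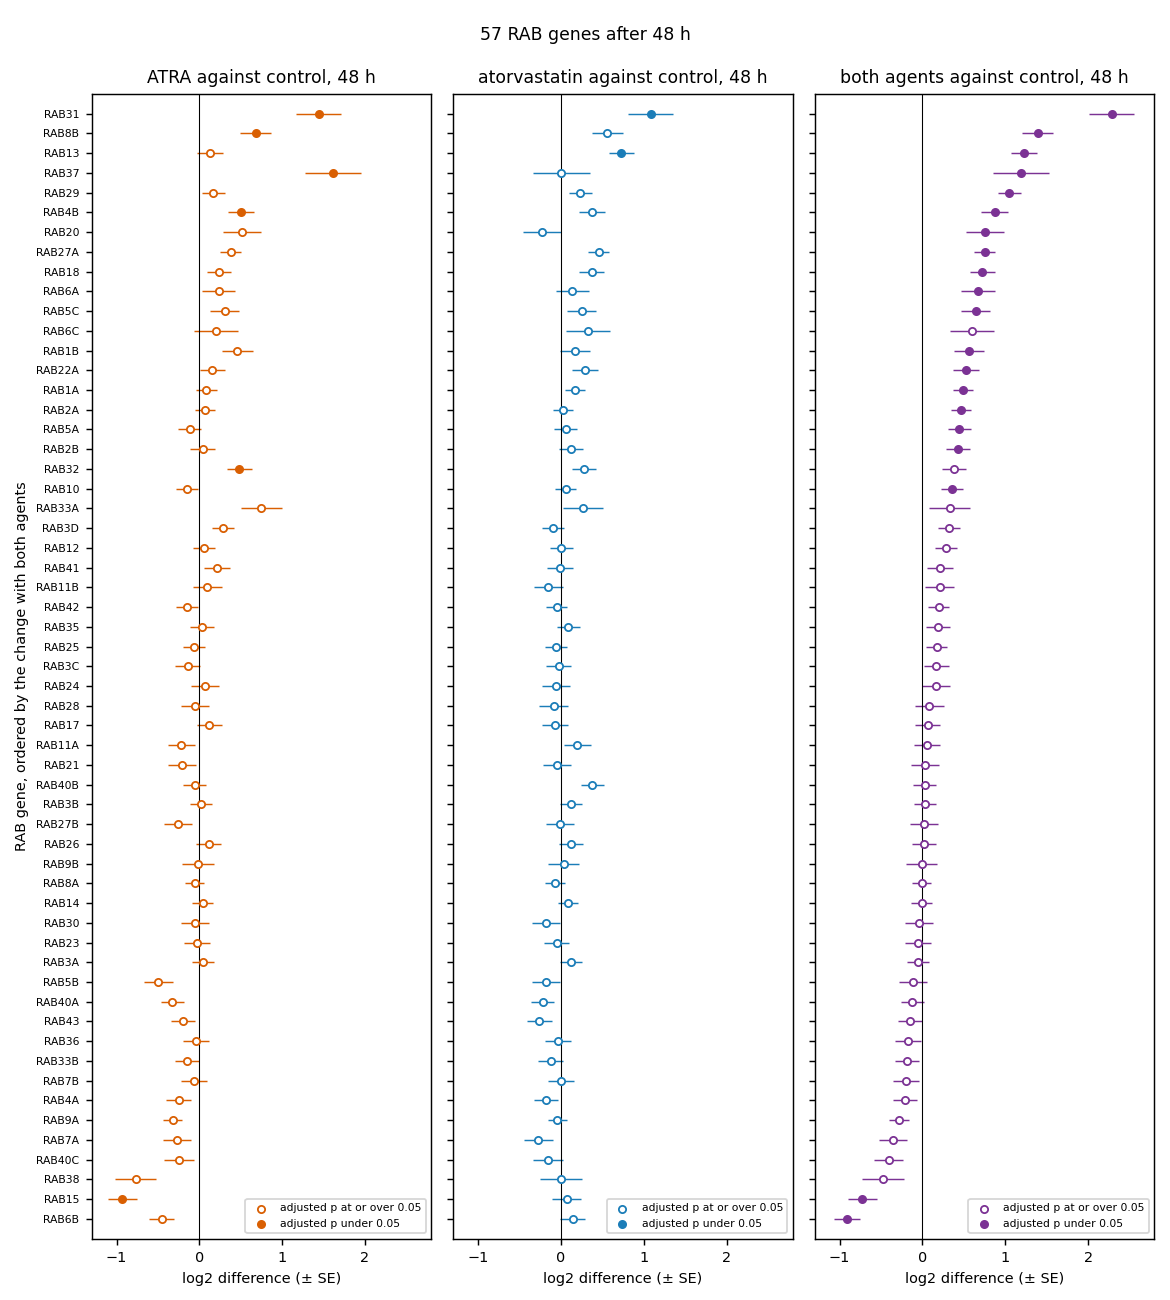
Log2 differences ± SE of the 57 RAB genes at 48 h for ATRA, atorvastatin and both agents against control (n = 3 arrays per group), ordered by the change with both agents. Filled points passed an adjusted p of 0.05: 6 genes with ATRA, 2 with atorvastatin and 20 with both, with RAB31 at the top and RAB15 and RAB6B at the bottom.

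Of the RABs of early and recycling endosomes and of the plasma membrane, 10 of 20 passed the threshold for both agents against control at 48 h, 9 of them higher, where 20.4% of all genes passed and 9.67% rose. RAB31 is a relative of RAB5 that works between the trans-Golgi network and endosomes. In the order of experiments 1, 2 and 3, its log2 signal at 48 h was 6.77, 7.32 and 8.07 in control, 8.85, 8.55 and 9.09 with ATRA, 8.88, 8.09 and 8.44 with atorvastatin, and 9.59, 9.46 and 9.96 with both. The control arrays were spread widely and lay below every treated array, and the combination arrays lay above all others. RAB31 rose by 2.28 ± 0.27 with both agents (adjusted p = 6.6e-08, 4.86-fold), by 1.44 ± 0.27 with ATRA (adjusted p = 0.00036) and by 1.09 ± 0.27 with atorvastatin (adjusted p = 0.045). The atorvastatin call was lost in 8 of the 11 alternative settings, while the other 2 held in all 11. In control cells RAB31 differed by -0.64 ± 0.27 between 48 and 8 h (adjusted p = 0.227).

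RAB8B and RAB13 serve delivery to the plasma membrane, and RAB13 is best known from epithelial tight junctions. RAB8B read 6.28, 6.58 and 6.86 in control, 7.15, 7.0 and 7.59 with ATRA, 7.25, 7.09 and 7.06 with atorvastatin, and 7.71, 7.95 and 8.22 with both. The 4 groups did not overlap except for ATRA with atorvastatin, and control was near the median of all probes. RAB8B rose by 1.39 ± 0.19 with both agents (adjusted p = 5.2e-07) and by 0.68 ± 0.19 with ATRA (adjusted p = 0.016). The ATRA call was lost whichever experiment was left out.

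RAB13 read 7.05, 6.94 and 7.04 in control, 7.0, 7.13 and 7.30 with ATRA, 7.89, 7.73 and 7.61 with atorvastatin, and 8.51, 8.27 and 7.94 with both. Control and ATRA arrays overlapped at the bottom, and the arrays with both agents lay above the rest. Against control at 48 h it was higher by 0.73 ± 0.15 with atorvastatin (adjusted p = 0.012) and by 1.23 ± 0.15 with both (adjusted p = 1.8e-07). The difference with ATRA was 0.13 ± 0.15. Mean signals at 8, 24 and 48 h were 7.52, 7.48 and 7.01 in control, 7.56, 7.77 and 7.74 with atorvastatin, and 7.75, 7.93 and 8.24 with both. The control mean was thus lower at 48 h than before, while that with atorvastatin was not.

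RAB4B acts in recycling from early endosomes. Its signal was 8.05, 8.39 and 8.19 in control, 8.79, 8.85 and 8.49 with ATRA, 8.45, 8.59 and 8.73 with atorvastatin, and 9.01, 9.18 and 9.06 with both. Every treated array was above every control array, and those with both agents were the highest. The rise was 0.87 ± 0.16 with both (adjusted p = 8.0e-05) and 0.50 ± 0.16 with ATRA (adjusted p = 0.046), the latter lost under median scaling and without experiment 1 or 2.

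RAB5A, the early endosome RAB that drives endosome fusion, rose with both agents. It read 9.90, 9.97 and 9.72 in control, 9.51, 9.93 and 9.79 with ATRA, 9.67, 10.00 and 10.09 with atorvastatin, and 10.46, 10.31 and 10.16 with both. The combination arrays lay above the others, which overlapped. The rise with both agents was 0.45 ± 0.14 (adjusted p = 0.020) and passed in no fit that left out an experiment. Its paralogue RAB5C rose by 0.64 ± 0.17 (adjusted p = 0.0066), and RAB5B differed by -0.12 ± 0.17 (adjusted p = 0.738). The RAB5C call was lost without experiment 1 or 2 and with the mean over probes. A dimmer probe of RAB5C, with a mean signal of 6.41, differed by 0.04 with both agents.

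RAB15, which slows early endocytic traffic, was the endosomal gene that fell. Its signal was 7.08, 7.03 and 7.37 in control, 6.03, 6.08 and 6.57 with ATRA, 7.16, 7.33 and 7.20 with atorvastatin, and 6.39, 6.60 and 6.30 with both. The 6 arrays with ATRA, alone or combined, lay below the 6 without it. RAB15 fell by 0.93 ± 0.18 with ATRA (adjusted p = 0.00038) and by 0.73 ± 0.18 with both (adjusted p = 0.0022), toward the median of all probes, where changes are compressed.

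The other endosomal RABs that rose with both agents did so by less than 1 log2 unit. RAB20, found on endosomes and phagosomes of macrophages, rose by 0.76 ± 0.23 (adjusted p = 0.017), RAB22A of early endosomes by 0.53 ± 0.16 (adjusted p = 0.012) and RAB10, of exocytic vesicles, by 0.36 ± 0.13 (adjusted p = 0.044). The mean of RAB22A was 8.88 at 8 h and 8.86 at 48 h with both agents, against 8.58 and 8.33 in control. Without experiment 3 the calls of RAB20 and RAB10 were lost, and without experiment 2 those of RAB22A and RAB10. That of RAB10 was also lost with the arrays of 48 h alone. RAB11A, the main RAB of slow recycling, RAB8A and RAB35 were among the members of this list that passed in no comparison.

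The 5 members that rose by more than 1 log2 unit with both agents were chosen after their values were seen. These genes did not all move alike with ATRA or atorvastatin alone. RAB37 had no promoter entry, and the promoters of the other 4 are shown. They are RefSeq sequences of GRCh38.p14 from 250 bases before to 50 bases after the start of the gene, read 5′ to 3′ on the strand of the gene. RAB31 is at chr18:9708051-9708350 (plus strand), RAB8B at chr15:63189356-63189655 (plus strand), RAB13 at chr1:153986290-153986589 (minus strand) and RAB29 at chr1:205775433-205775732 (minus strand). Capitals mark matches, on either strand, to the nuclear receptor half-site AGGTCA, the E-box CACGTG, the PU.1 and ETS core GAGGAA and the KLF-type box CCACCC.
RAB31: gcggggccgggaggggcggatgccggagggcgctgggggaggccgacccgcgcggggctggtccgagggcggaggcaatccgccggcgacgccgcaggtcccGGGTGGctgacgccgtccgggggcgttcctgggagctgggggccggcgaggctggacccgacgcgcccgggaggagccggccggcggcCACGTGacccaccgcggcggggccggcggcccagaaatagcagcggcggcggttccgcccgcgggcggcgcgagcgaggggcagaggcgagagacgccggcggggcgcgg
RAB8B: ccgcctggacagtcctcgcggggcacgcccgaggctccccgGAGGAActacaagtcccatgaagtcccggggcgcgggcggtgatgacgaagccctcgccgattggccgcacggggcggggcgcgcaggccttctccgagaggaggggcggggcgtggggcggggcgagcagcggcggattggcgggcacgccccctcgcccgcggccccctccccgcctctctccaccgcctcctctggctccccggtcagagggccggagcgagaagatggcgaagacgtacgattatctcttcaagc
RAB13: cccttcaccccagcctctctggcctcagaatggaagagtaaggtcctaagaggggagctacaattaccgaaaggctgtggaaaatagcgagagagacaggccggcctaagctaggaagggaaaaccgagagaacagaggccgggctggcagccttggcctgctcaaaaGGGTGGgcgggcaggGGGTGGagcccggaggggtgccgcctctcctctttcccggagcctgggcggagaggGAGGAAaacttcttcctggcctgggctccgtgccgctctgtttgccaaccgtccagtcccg
RAB29: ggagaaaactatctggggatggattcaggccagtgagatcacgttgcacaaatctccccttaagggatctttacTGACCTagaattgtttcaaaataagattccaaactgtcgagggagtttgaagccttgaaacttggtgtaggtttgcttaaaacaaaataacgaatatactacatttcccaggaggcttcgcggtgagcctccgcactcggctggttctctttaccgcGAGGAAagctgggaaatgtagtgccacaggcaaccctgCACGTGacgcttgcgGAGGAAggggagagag
The E-box was present in RAB31 and RAB29, the PU.1 and ETS core in RAB8B, RAB13 and RAB29, the KLF-type box in RAB31 and RAB13, and the half-site in RAB29 alone of the 4. Of the tested RAB genes 46 had a promoter entry. Among these 15.2% held the half-site, 13.0% the E-box, 30.4% the PU.1 and ETS core and 45.7% the KLF-type box, against 13.9%, 7.4%, 27.6% and 33.4% of the 27305 promoters in the table. A match describes these letters only, and binding was not measured.

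Of the RABs of secretory granules and lysosome-related organelles, 3 of 11 rose with both agents at 48 h and none fell, where 20.4% of all genes passed, 9.67% higher and 10.7% lower. RAB27A docks azurophil granules at the plasma membrane of neutrophils, and its loss causes Griscelli syndrome. It read 9.78, 10.12 and 10.22 in control, 10.31, 10.46 and 10.48 with ATRA, 10.45, 10.58 and 10.46 with atorvastatin, and 10.87, 10.98 and 10.53 with both. All treated arrays lay above all control arrays. The rise with both was 0.75 ± 0.13 (adjusted p = 2.3e-05) and held in all 11 alternatives, while ATRA gave 0.38 ± 0.13 (adjusted p = 0.059) and atorvastatin 0.46 ± 0.13 (adjusted p = 0.079). Other probes of RAB27A, near background, gave differences of 0.17 to 0.31 with both agents.

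RAB37, a RAB of mast cell secretory granules, followed ATRA. Its signal was 8.09, 8.02 and 8.14 in control, 9.56, 9.81 and 9.72 with ATRA, 8.37, 7.78 and 8.13 with atorvastatin, and 8.98, 9.32 and 9.53 with both. The arrays with ATRA lay above the arrays without it, and control and atorvastatin overlapped. It rose by 1.61 ± 0.34 with ATRA (adjusted p = 0.0014, 3.06-fold) and by 1.19 ± 0.34 with both (adjusted p = 0.0096). The ATRA call was lost without experiment 2, and the call with both agents without experiment 2 or 3. The 2 doubted libraries stayed in those fits, and their part in these losses was not tested. The difference with atorvastatin alone was 0.01 ± 0.34.

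RAB29, a partner of the kinase LRRK2 at the trans-Golgi network and lysosomes, rose with both agents together. It read 7.73, 7.58 and 8.05 in control, 7.82, 7.83 and 8.22 with ATRA, 7.74, 8.23 and 8.11 with atorvastatin, and 8.94, 8.88 and 8.69 with both. The first 3 groups overlapped, and the combination arrays lay above them. The rise was 1.05 ± 0.14 over control (adjusted p = 4.7e-07), against differences of 0.17 ± 0.14 with ATRA and 0.23 ± 0.14 with atorvastatin.

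RAB32 and RAB38 are a pair that serves melanosomes and other lysosome-related organelles. RAB32 rose by 0.48 ± 0.15 with ATRA alone at 48 h (adjusted p = 0.031), a call lost under median scaling and without any 1 experiment. RAB38 had a group mean of 9.97 ± 0.06 (SD) in control and 9.20 with ATRA at 48 h, a difference of -0.77 ± 0.25 (adjusted p = 0.054), and without the 2 doubted libraries the adjusted p was 0.00016. RAB3D, of exocrine secretory granules, was dim and passed only with both agents against atorvastatin (0.42 ± 0.13, adjusted p = 0.031).

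**Figure D3:**
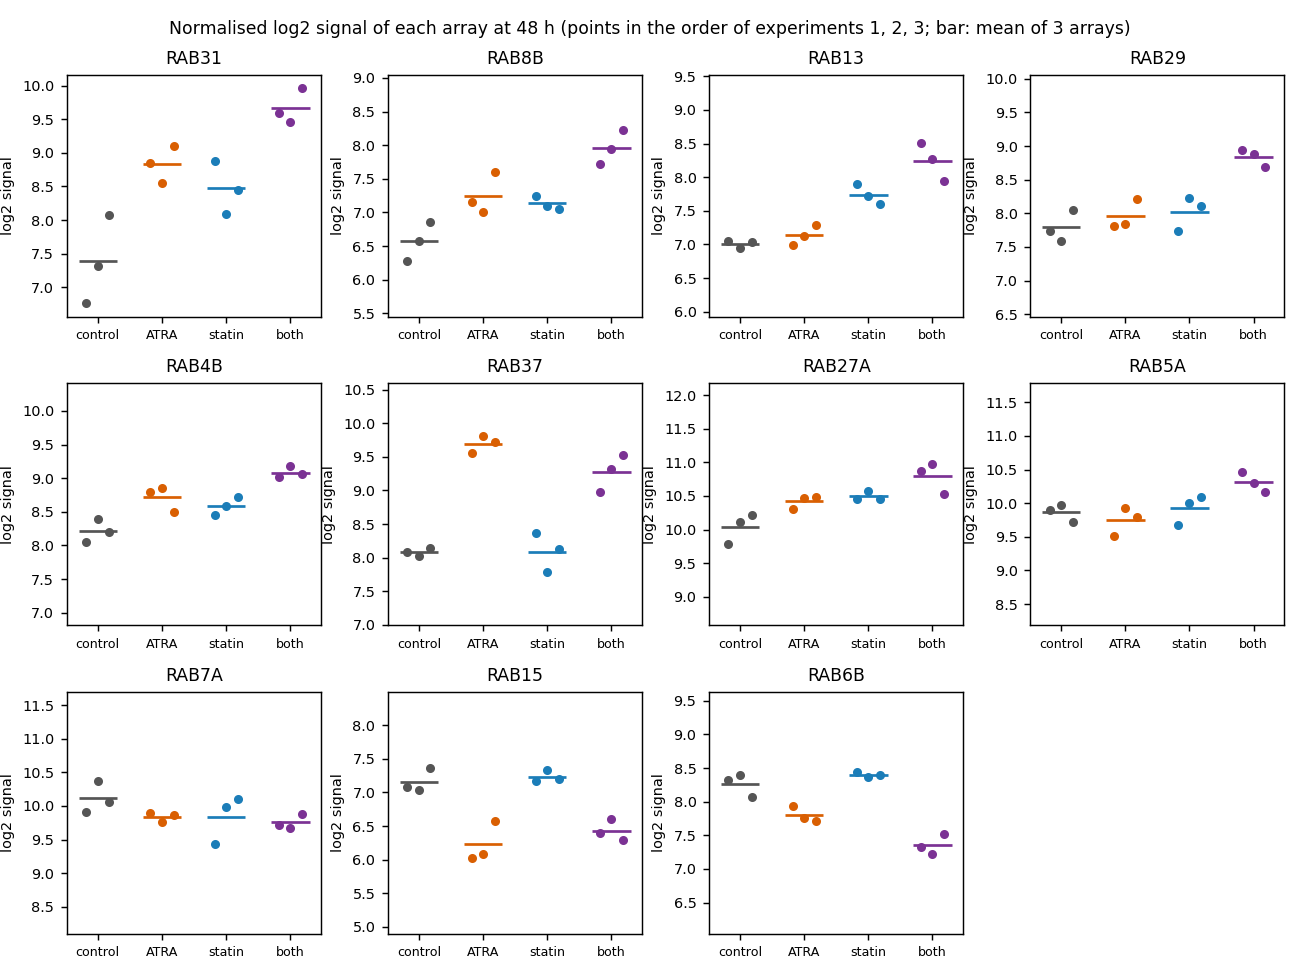
Normalised log2 signal of each array at 48 h for 11 RAB genes, with points in the order of experiments 1, 2 and 3 and a bar at the mean of 3 arrays; each panel spans the same number of log2 units. RAB31, RAB8B, RAB13, RAB29 and RAB27A were highest with both agents, RAB37 was high and RAB15 low in both groups with ATRA, and RAB7A with both agents lay just below control.

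Of the RABs of the endoplasmic reticulum (ER) and Golgi, 7 of 12 passed for both agents against control at 48 h, 6 higher and 1 lower, where 20.4% of all genes passed and 9.67% rose. RAB1A and RAB1B, which carry vesicles from the ER to the Golgi, were higher than control at 48 h by 0.49 ± 0.12 (adjusted p = 0.0035) and 0.57 ± 0.18 (adjusted p = 0.024). The RAB1B means at 8, 24 and 48 h were 7.17, 7.55 and 6.87 in control and 7.36, 7.24 and 7.43 with both agents. Those of RAB1A were 11.21, 11.18 and 10.89 in control and 11.17, 11.16 and 11.38 with both. RAB2A and RAB2B, which act between the ER and Golgi, rose by 0.46 ± 0.12 (adjusted p = 0.0044) and 0.43 ± 0.15 (adjusted p = 0.035). RAB18, which also sits on lipid droplets, was higher than control at 48 h by 0.72 ± 0.15 (adjusted p = 0.00043). Its mean was 9.58 at 8 h and 9.20 at 48 h in control, against 9.84 and 9.92 with both agents. RAB6A, of traffic within and from the Golgi, rose by 0.67 ± 0.20 (adjusted p = 0.014). Without experiment 2 each of these 6 calls was lost, and without experiment 1 those of RAB1A, RAB1B and RAB6A.

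RAB6B, a Golgi RAB best known from neurons, fell while its paralogue RAB6A rose. Its signal was 8.32, 8.40 and 8.07 in control, 7.94, 7.76 and 7.71 with ATRA, 8.44, 8.36 and 8.40 with atorvastatin, and 7.32, 7.23 and 7.51 with both. The groups with ATRA lay below those without it, and the combination arrays were the lowest. RAB6B fell by 0.91 ± 0.16 with both agents (adjusted p = 3.3e-05), a call that held in all 11 alternatives, and differed by -0.46 with ATRA without passing.

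The RABs of late endosomes, lysosomes and autophagy gave no call at 48 h against control with both agents (0 of 7, with 3 at an unadjusted p under 0.05 in limma). Over all genes 20.4% passed, and 4584 of 15308 had an unadjusted p under 0.05. RAB7A, which leads late endosomes and phagosomes to fuse with lysosomes, read 9.91, 10.37 and 10.06 in control, 9.89, 9.77 and 9.87 with ATRA, 9.43, 9.99 and 10.11 with atorvastatin, and 9.72, 9.68 and 9.88 with both. The combination arrays lay just below the control arrays, and atorvastatin overlapped control. The difference with both was -0.36 ± 0.17 (adjusted p = 0.158). The median change of these 7 genes was -0.17, and they spanned -0.36 to 0.28. The 7 RAB genes placed in none of the 4 groups, RAB6C among them, gave no call in this comparison either, with 2 at an unadjusted p under 0.05 in limma. The shares of all genes are those given above.

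Over all comparisons 28 of the 57 genes passed at least once and 29 did not. Only 1 of the 20 dim genes, RAB3D, was among the 28. The shares of all genes and of all dim genes that passed at least once are not given, so these counts cannot be set against them. Differences of the 29 from control spanned -0.77 (RAB38 with ATRA at 48 h) to 0.60 (RAB6C with both agents at 48 h). RAB6C is a near copy of RAB6A, so their probes may read both transcripts.

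At 8 h no RAB gene passed, against 1.42% of all genes with ATRA, 0.00653% with atorvastatin and 1.30% with both agents. At an unadjusted p under 0.05 in limma there were 6, 0 and 3, against 1488, 395 and 1476 of all 15308 genes. Without the 2 doubted libraries RAB37 rose and RAB38 fell with ATRA (2.67% of all genes) and with both agents (2.65%). RAB37 read 7.60, 7.51 and 7.58 in control, 8.84, 8.74 and 8.59 with ATRA, and 8.82, 8.66 and 8.67 with both, with the treated arrays well above control. The difference with ATRA was 1.16 in either fit, with an adjusted p of 0.089 in all 36 arrays and 8.9e-07 without the 2 libraries. That of RAB38 was -0.66 with ATRA (adjusted p = 0.0035 without them).

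At 24 h the doubted libraries entered the groups compared. RAB37 read 7.63, 9.64 and 9.45 in the arrays labelled ATRA and 9.26, 7.55 and 7.27 in those labelled atorvastatin, against 7.90, 7.95 and 7.94 in control. RAB31 read 8.21, 9.41 and 9.14 in the former and 9.04, 7.86 and 8.04 in the latter, against 8.17, 8.02 and 8.25 in control. In each case the first array, from experiment 1, lay apart from its group and near the other one.

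With these libraries no RAB gene passed for ATRA (0.601% of all genes) or atorvastatin (0.0261%) at 24 h. At an unadjusted p under 0.05 in limma there were 11 and 6, against 1454 and 1003 of all 15308 genes. Without the 2 doubted libraries RAB37 rose by 1.62, RAB31 rose by 1.13, RAB38 fell by 0.90 and RAB15 fell by 0.64 with ATRA (4 of 57, against 4.06% of all genes), and none passed for atorvastatin. Both agents at 24 h changed 3 genes, where 6.02% of all genes changed. RAB37 rose by 1.42 ± 0.34 (adjusted p = 0.0064), RAB20 rose by 0.88 ± 0.23 (adjusted p = 0.016) and RAB15 fell by 0.63 ± 0.18 (adjusted p = 0.024). Without the 2 libraries 6 passed (7.57% of all genes), with RAB31, RAB38 and RAB3D added, and without experiment 2 or 3 none did. Under median scaling 8 passed, all higher, as were 95.2% of the 1003 calls over all 15308 genes.

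**Figure D4:**
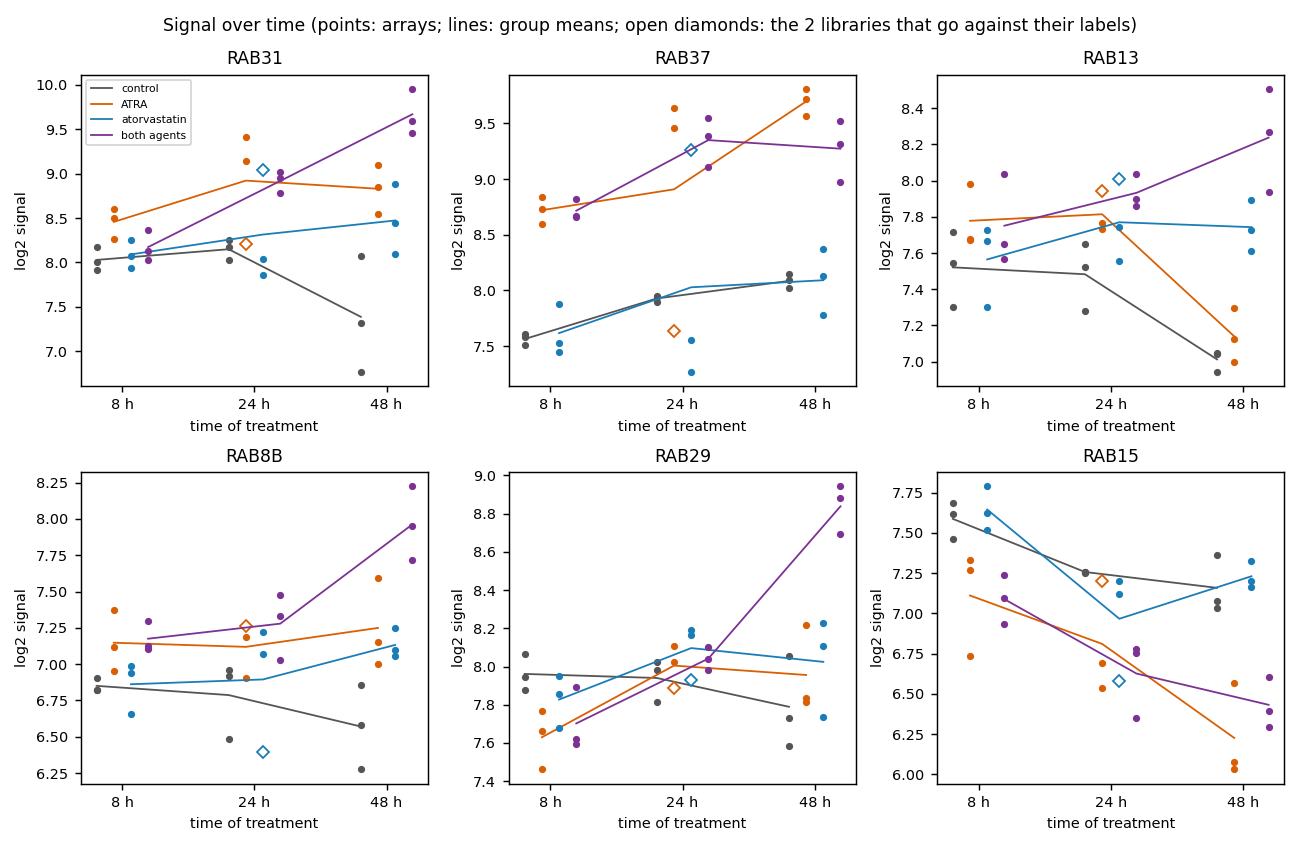
Normalised log2 signal of each array (points) and group means (lines) of 6 RAB genes at 8, 24 and 48 h, with open diamonds for the 2 libraries of experiment 1 at 24 h that go against their labels. RAB37 is already high at 8 h in both groups with ATRA, whereas RAB29 with both agents separates from the other groups at 48 h.

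Adding atorvastatin to ATRA raised 8 RAB genes at 48 h and lowered none, where 6.40% of all genes changed and 3.42% rose. RAB13 rose by 1.10 ± 0.15 over ATRA alone (adjusted p = 6.8e-06), RAB29 by 0.88 ± 0.14 (adjusted p = 4.8e-05), RAB8B by 0.71 ± 0.19 (adjusted p = 0.013) and RAB5A by 0.56 ± 0.14 (adjusted p = 0.0098). RAB10, RAB18, RAB1A and RAB2A rose by 0.40 to 0.51. RAB31 differed by 0.84 ± 0.27 (adjusted p = 0.058). The count was 9 without the doubted libraries (7.59% of all genes), 2 without experiment 2, 4 without experiment 1 and 5 with the arrays of 48 h alone. The share of all genes with the arrays of 48 h alone is not given. At 8 h and 24 h no RAB gene passed this comparison, against 0.00653% and 0.0131% of all genes, with 0 and 1 at an unadjusted p under 0.05 in limma. Of all 15308 genes 373 and 637 had such a p.

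Adding ATRA to atorvastatin changed 11, of which 9 rose, where 14.8% of all genes changed and 7.07% rose. RAB31 rose by 1.20 ± 0.27 (adjusted p = 0.0016), RAB37 by 1.18 ± 0.34 (adjusted p = 0.014), RAB20 by 0.99 ± 0.23 (adjusted p = 0.0024), RAB8B by 0.83 ± 0.19 (adjusted p = 0.0014) and RAB29 by 0.81 ± 0.14 (adjusted p = 5.0e-05). RAB13, RAB4B, RAB2A and RAB3D rose by 0.42 to 0.49. RAB6B fell by 1.05 ± 0.16 (adjusted p = 6.9e-06) and RAB15 fell by 0.80 ± 0.18 (adjusted p = 0.0012). The count was 28 under median scaling, 26 of them higher, a share of 92.9% in place of 81.8%. That scaling took the median change of all genes from -0.01 to 0.15, and 95.7% of its 3132 calls over all 15308 genes were higher. Without experiment 2 the count was 4, and without experiment 3 it was 6.

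The interaction at 48 h, the difference between the effect of both agents and the sum of their single effects, passed for no RAB gene in limma, where 0.516% of all genes passed. An unadjusted p under 0.05 was found for 8 RAB genes, against 1316 of all 15308 genes. RAB29 had a difference of 0.65 (95% interval 0.25 to 1.05, adjusted p = 0.170), RAB5A 0.50 (0.10 to 0.91, adjusted p = 0.419) and RAB6B -0.59 (-1.04 to -0.14, adjusted p = 0.352). For RAB31 it was -0.25, with an interval of -1.02 to 0.53. These intervals leave room for a departure from the sum in either direction for RAB31, and no RAB gene was shown to depart from it.

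In control cells 2 of the 57 RAB genes (3.51%) changed from 8 to 48 h, near the 3.59% of all genes. RAB33A, of the Golgi, and RAB3A, of synaptic vesicles, rose by 0.90 ± 0.25 (adjusted p = 0.030) and 0.52 ± 0.13 (adjusted p = 0.020). Neither call held without experiment 1, without experiment 2 or under median scaling. Without the 2 doubted libraries 6 RAB genes passed, 5 higher and 1 lower, and 4.78% of all genes.

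With both agents 18 changed between 8 and 48 h, 16 higher and 2 lower, where 16.0% of all genes changed and 7.72% rose. RAB31 rose by 1.5 ± 0.27 (adjusted p = 0.00011), RAB33A by 1.19 ± 0.25 (adjusted p = 0.00056), RAB4B by 1.15 ± 0.16 (adjusted p = 2.2e-06), RAB29 by 1.14 ± 0.14 (adjusted p = 2.1e-07) and RAB27A by 0.81 ± 0.13 (adjusted p = 1.3e-05). RAB8B, RAB6A, RAB5B, RAB3C, RAB24, RAB5C, RAB13, RAB5A, RAB10, RAB3A and RAB2A rose by 0.37 to 0.79. RAB33A and RAB3A also rose in control cells over that time, as given above, so these changes do not separate time from treatment. RAB15 fell by 0.66 ± 0.18 (adjusted p = 0.0075) and RAB4A, of early endosome recycling, fell by 0.48 ± 0.15 (adjusted p = 0.022). The count fell to 10 without experiment 2 and 11 without experiment 3.

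The genes that act on RABs did not move one way at 48 h with both agents, a comparison in which 20.4% of all genes passed, 9.67% higher and 10.7% lower. In the group for prenylation, escort and GDI, 4 of 12 measured genes passed, 1 higher and 3 lower. RABAC1, a Golgi receptor of prenylated RABs, rose by 0.76 ± 0.14 (adjusted p = 6.1e-05), and its difference with ATRA alone was -0.11. FNTB and FNTA, the subunits of farnesyltransferase, fell by 0.54 ± 0.15 (adjusted p = 0.0086) and 0.38 ± 0.13 (adjusted p = 0.040). ICMT, which methylates prenylated proteins, fell by 0.43 ± 0.14 (adjusted p = 0.027). The subunits of the enzyme that prenylates RABs did not pass, with 0.32 ± 0.13 for RABGGTA (adjusted p = 0.082) and -0.40 ± 0.21 for RABGGTB (adjusted p = 0.200).

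Among the RAB GEFs 12 of 28 passed, 6 in each direction, against 20.4% of all genes. DENND1A, a GEF of RAB35, fell by 1.27 ± 0.17 (adjusted p = 4.4e-07), and by 0.80 with ATRA and 0.69 with atorvastatin alone, each past the threshold. DENND5A rose by 1.11 ± 0.20 (adjusted p = 8.5e-05), with differences of -0.16 for ATRA and 0.24 for atorvastatin. ANKRD27, a GEF of RAB21 that also binds RAB32 and RAB38, fell by 0.83 ± 0.16 (adjusted p = 0.00019), and DENND4B rose by 0.73 ± 0.16 (adjusted p = 0.00056).

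Of the RAB GAPs 7 of 26 passed, 2 higher and 5 lower, not far from the 20.4% of all genes. TBC1D10C rose from a mean of 8.84 ± 0.14 (SD) in control to 10.11 ± 0.32, by 1.28 ± 0.19 (adjusted p = 2.5e-06), and by 1.19 ± 0.19 with ATRA alone. TBC1D4, which restrains RAB10 in glucose transporter traffic, fell by 0.94 ± 0.24 (adjusted p = 0.0032), TBC1D24 by 0.78 and TBC1D2B by 0.56.

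Of the RAB effectors 14 of 43 passed, 10 higher and 4 lower, against 20.4% of all genes, 9.67% higher and 10.7% lower. UNC13D, the RAB27A effector that primes granules for release, rose from 8.48 ± 0.17 in control to 9.77 ± 0.19 (mean ± SD), by 1.29 ± 0.21 (adjusted p = 1.7e-05). OSBPL1A, a sterol sensor that binds RAB7A, fell from 9.75 ± 0.19 to 8.17 ± 0.14, by 1.59 ± 0.15 (adjusted p = 4.9e-10), and by 0.87 against ATRA alone. RAB11FIP1, an effector of recycling endosomes, rose by 0.65 ± 0.16 (adjusted p = 0.0029), and GRIPAP1, of RAB4 endosomes, by 0.60 ± 0.20 (adjusted p = 0.030).

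Across the 12 group means, the RAB genes most like RAB31 were RAB8B (Pearson r = 0.923), RAB27A (0.825) and RAB6C (0.781). Those most like RAB27A were RAB6A (0.911), RAB4B (0.875) and RAB6C (0.873). The group means share experiments and normalisation, and these values describe likeness of pattern only.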

How the data were processed

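The deposited values of each array are intensity per probe on a linear scale: per the labels, the authors averaged the beads of each of 47293 probes in BeadStudio 1.3.1.5, without background correction. The authors' own table holds log2 values from Bioconductor, as deposited, with a normalization not given in the sources used here, and served only as an alternative. The intensities were background corrected with normexp (offset 50) and quantile normalized in limma 3.58.1 (R 4.3.3). A probe was kept if it exceeded the median of its array in at least 3 arrays, genes were named through the platform annotation and the RefSeq gene table, and the brightest probe stood for each gene. Of the RAB genes 4 have several probes.

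A model of the 12 group means over 36 arrays (24 residual degrees of freedom) gave 16 comparisons, tested two-sided with limma and Benjamini-Hochberg adjustment over the 15308 genes of each. The method was tested on simulated data. Experiments were told apart by runs of 12 in the numbers of the sample titles. Identical arrays were not found, and the correlation within groups was 0.965 to 0.993.

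Named with values were RAB5A, RAB7A, RAB27A, RAB31 and each RAB gene past the threshold in any comparison. Values of every array are given for these 4 and the 8 with the largest changes from control at 48 h. Of each group of regulators the 4 largest changes past the threshold with both agents against control at 48 h were named. RAB38, RAB6C, RABGGTA and RABGGTB were singled out after their values were seen. The members and lists were chosen with earlier results of these data known. The alternatives left out each experiment, the 2 doubted libraries or the arrays of other times, added the experiment as a block, took median scaling or the authors' values, averaged probes, or dropped the background correction or the dim filter.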

Additional observations from a re-analysis of the deposited data

How the results depend on the processing

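None of the 70 calls of single RAB genes turned its direction under the 11 alternatives, and 19 of them held in all 11. Of the 70, 28 were lost without experiment 1, 44 without experiment 2 and 32 without experiment 3, where fewer arrays entered. Median scaling lost 13, the arrays of the times compared 15, the mean over probes 4, the authors' values 3 and no background correction 1; the other alternatives lost none. The fits without experiment 2 or 3 kept the 2 doubted libraries. The cause of these losses was not tested. Counts of RAB genes past the threshold with 1 experiment left out ran from 0 to 2 for ATRA at 8 h, 0 to 1 for both agents at 8 h, 0 to 5 for ATRA at 24 h, 0 to 5 for both agents at 24 h, 2 to 4 for ATRA at 48 h, 0 to 0 for atorvastatin at 48 h and 9 to 17 for both agents at 48 h. They ran from 2 to 6 for both agents against ATRA at 48 h, 4 to 8 against atorvastatin at 48 h, 0 to 1 for control at 48 h against 8 h and 10 to 12 for both agents at 48 h against 8 h. The shares of all genes in these fits are not given, so these counts cannot be set against them. Without the 2 doubted libraries the counts were 2 for ATRA at 8 h, 2 for both agents at 8 h, 4 for ATRA at 24 h, 6 for both agents at 24 h and 6 for control over time. Median scaling gave 1 for both agents at 8 h, where 153 of all 15308 genes passed. At 24 h it gave 2 for ATRA (334 of all genes) and 8 for both agents (1003). At 48 h it gave 0 for atorvastatin (21) and 28 for both agents against atorvastatin (3132), and for control over time 0 (101). With only the arrays of the times compared, the counts were 3 for ATRA at 8 h, 2 for both agents at 8 h, 0 for both agents at 24 h, 1 for atorvastatin at 48 h, 5 for both agents against ATRA at 48 h and 4 for control over time. For atorvastatin at 48 h, no background correction and the mean over probes each gave 1. With the experiment as a replicate block, both agents gave 6 calls at 24 h and 20 at 48 h. ATRA at 48 h gave 9, in place of 6, and the block lost none of the 70 calls. The shares of all genes with the arrays of the times compared, with the block, without background correction or with averaged probes are not given. Arrays of the same experiment deviated together in part: 126 of 198 pairs correlated above 0.1, from -0.527 to 0.44. The median correlation was 0.166, 0.05 and 0.133 in experiments 1, 2 and 3. The main model left the experiment out, and these values do not show that it had no effect. The block fit given above takes it into account. Genes near the median of all probes have compressed changes, and 19 of the 20 dim RAB genes gave no call. The share of all dim genes without a call is not given.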
